A study of Mus musculus with 20 samples.

Results

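The genes described here are 31 mouse genes of glucose uptake, glycolysis, lactate and pyruvate handling, followed through chemical reprogramming of fibroblasts. They were taken by symbol from a count table of 47643 Ensembl gene identifiers. Each of the 31 symbols matched exactly 1 identifier, and all 31 passed the filter on low counts in both fits. The set holds 2 glucose transporters, 10 genes of the hexose steps, 7 of the triose steps, 4 of lactate, 5 of pyruvate entry into mitochondria, 2 pyruvate dehydrogenase kinases and the regulator Hif1a.

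In the study, mouse embryonic fibroblasts (MEF) of strain B6DBA were turned into chemically induced pluripotent stem (CiPS) cells with small molecules, and the design text asks how crotonic acid, a short-chain fatty acid, promotes this. The 19 RNA-seq libraries used were 1 of MEF, 2 each of cultures at days 16, 20, 24 and 28, 2 each of cultures at days 20, 24 and 28 that had received 6 to 8 mM crotonic acid since day 16, 2 CiPS lines made by the crotonic acid method (CaCiPS1t and CaCiPS4t), 1 CiPS line made by the stepwise method (CiPS2t), and OG4, an embryonic stem (ES) line that shares the strain. The labels do not say whether both libraries of a day were grown separately, and the p-values therefore reflect the spread between libraries, which may be technical. Each line is a single line, and MEF and ES have 1 library each, which the fits assume to vary like the other groups.

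Glycolysis splits glucose into pyruvate in the cytosol. Lactate dehydrogenase turns pyruvate into lactate for export, and the mitochondrial pyruvate carrier with the pyruvate dehydrogenase complex sends it to the citric acid cycle instead. Many steps are served by paralogous genes whose enzymes differ in affinity, tissue and regulation, and mouse pluripotent cells are known for high glycolytic flux alongside respiration.

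Libraries held 17475848 to 26609755 counted reads. Levels below are CPM, reads per gene scaled to a common library size, unless FPKM, which adjusts for gene length, is named. A change is given on the log2 scale ± its standard error, from edgeR's quasi-likelihood test with a Benjamini-Hochberg adjusted p across the genes tested, and a gene "rose" or "fell" where that p was under 0.05. The summed level of 12 naive pluripotency markers was 522 to 609 CPM at day 28 and 4969 to 6043 CPM in the CiPS and ES lines. The sum of 12 endoderm markers was 26788 to 34430 CPM at day 28 and 2858 to 3756 CPM in the lines. It was 15640 CPM in MEF, with Sparc highest, inside the 13675 to 34430 CPM of the 14 cultures. This sum alone therefore does not tell endoderm from fibroblasts. The sum of 12 fibroblast markers was 65885 CPM in MEF, 2290 to 7045 CPM in the 14 cultures and 10434 to 15817 CPM in the lines. Col1a1 was the highest of them in MEF and the lines. In most cultures it was Pdgfra, which is on the endoderm list too, at 840 and 1328 CPM at day 28. Macrophage markers summed to 214 CPM in MEF, 14.9 to 47.4 CPM in the cultures and 222 to 378 CPM in the lines. Liver markers, given for the cultures further below, summed to 85.5 CPM in MEF, with Alb highest, and 10.8 to 14.2 CPM in the lines. The part of these other cells in the changes below was not tested. In bulk libraries, fewer cells of a type and less RNA per cell cannot be told apart.

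Together the 31 genes took 0.587% to 0.881% of all FPKM in MEF and the 14 cultures and 1.34% to 1.49% in the CiPS and ES lines, so the ranges did not overlap. Pkm, which encodes the muscle-type pyruvate kinases, was the highest member by FPKM in every library. It reached 597 FPKM in MEF, 345 and 395 FPKM at day 28, and 1348 to 1498 FPKM in the CiPS lines. Mpc1, a subunit of the mitochondrial pyruvate carrier, was the lowest by mean FPKM, at 17 to 52 reads per library.

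**Figure D1:**
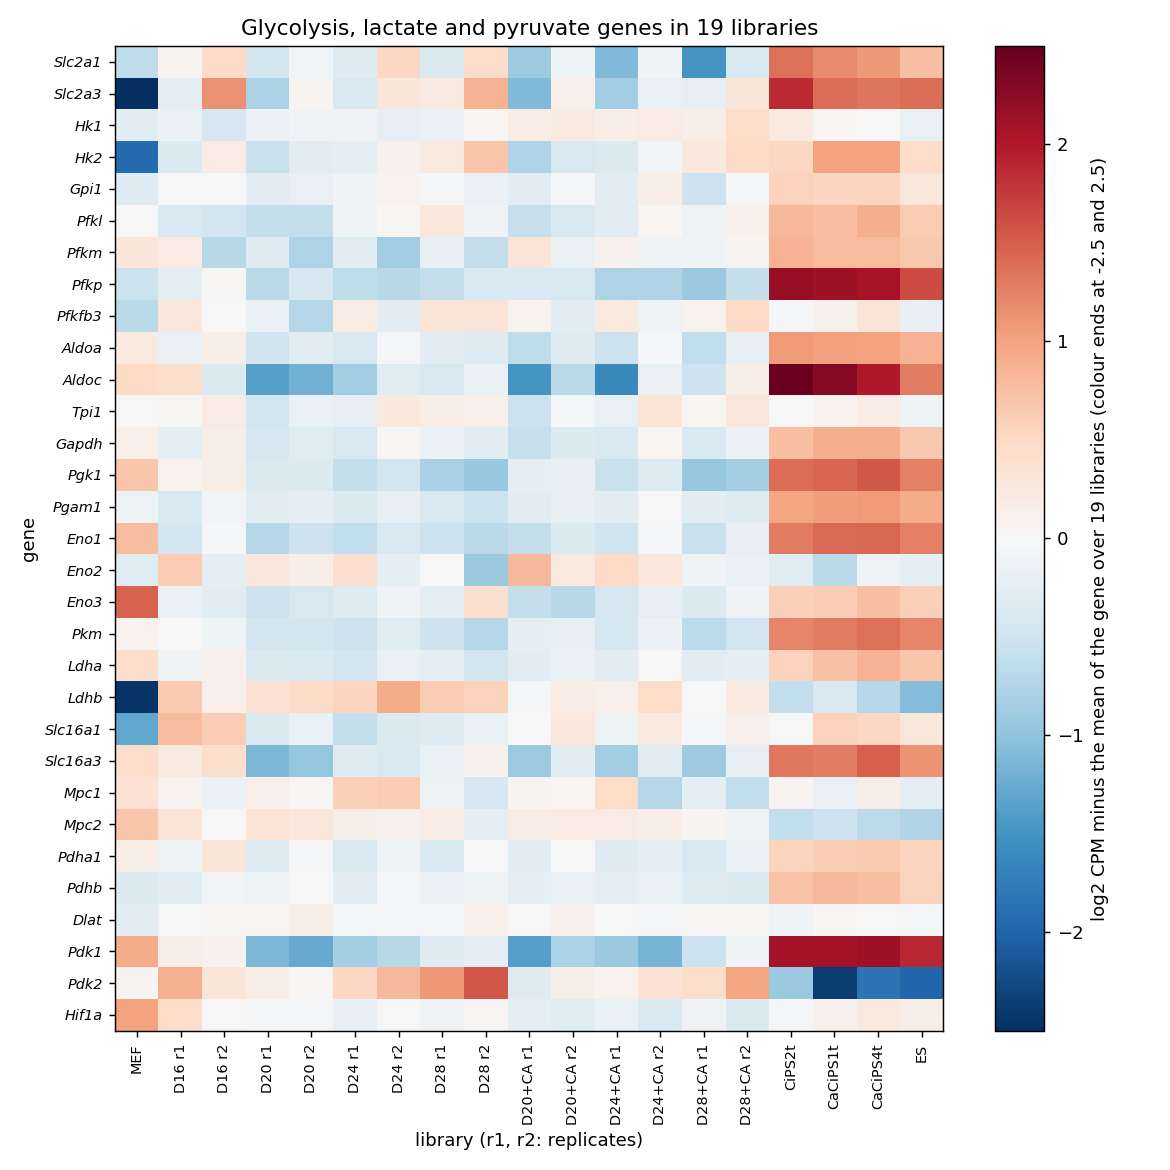
Level of each of the 31 genes (rows) in each of 19 libraries (columns), as log2 CPM minus the mean of the gene over the libraries. The 4 pluripotent lines at the right are above the gene's mean for most enzymes of the hexose and triose steps, while Ldhb, Mpc2 and Pdk2 are below it there.

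The main comparisons follow the cells from fibroblasts to stable lines. From MEF to day 16, 5 of 31 members rose and 6 fell, beside 17.4% of all genes that rose and 15.3% that fell (32.7% in either direction). The median change was -0.08 over the members and 0.03 over all genes. Scaling by total counts instead raised the median of all genes to 0.36 and gave 9 members that rose and 2 that fell. The split between directions at day 16 thus depends on the scaling. The shares of all genes that rose and fell at day 16 under total-count scaling are not given here, so the 9 and 2 are not set against them. With only MEF and day 16 in the fit, 4 of the 11 calls held, those of Slc2a3, Hk2, Ldhb and Slc16a1. From day 16 to day 28 without crotonic acid, 1 member rose and 3 fell, beside 10.1% and 6.80% of all genes (16.9% in either direction). From day 28 to the CiPS lines, 19 members rose and 3 fell, beside 29.1% and 30.4% of all genes (59.5% in either direction), and the median change was 0.83 against 0.02 over all genes. Against MEF, 19 members rose and 4 fell in the CiPS lines (25.7% and 27.4% of all genes, 53.1% in either direction). Scaling by total counts gave 23 and 3, and the shares of all genes under that scaling are not given here.

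These comparisons share libraries, so their values are set side by side and not correlated. Of the 19 members that rose from day 28 to the lines, 15 also rose against MEF, 3 (Pfkm, Ldha and Pdha1) did not pass the test against MEF, and Eno3 was lower than in MEF. For 18 of the 19 the MEF level lay below every CiPS line. The 5 members that passed neither test of the lines were Hk1, Tpi1, Eno2, Mpc1 and Dlat. In the lines and ES together, 19 members lay above all 14 cultures and 3 below, beside 22.9% and 23.6% of all genes.

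**Figure D2:**
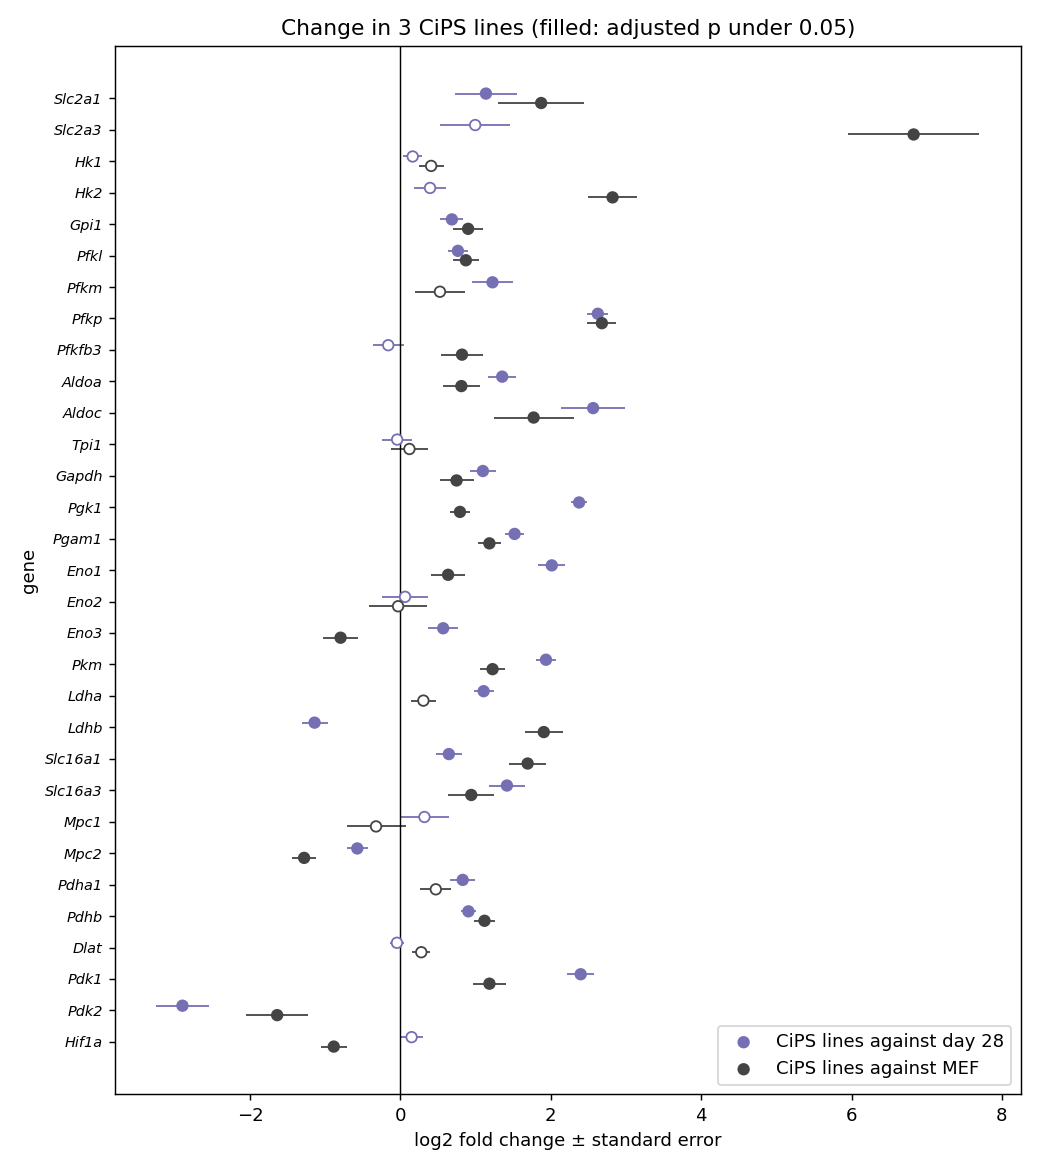
Log2 fold change ± standard error of each gene in the 3 CiPS lines against day 28 (2 libraries, purple) and against MEF (1 library, grey), with filled points past the adjusted p of 0.05. Pfkp, Pgk1 and Pdk1 lie to the right of 0 in both comparisons, Pdk2 lies to the left in both, and the point of Slc2a3 is filled against MEF and open against day 28.

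Glucose enters through facilitated transporters, of which Slc2a1 (GLUT1) is widely expressed and Slc2a3 (GLUT3) has high affinity for glucose. Slc2a3 was at 15.7 CPM in MEF, 513 and 1328 CPM in the day 16 libraries, 697 and 1093 CPM at day 28, 1522, 1568 and 2174 CPM in the CiPS lines and 1586 CPM in ES. All cultures and lines were thus far above MEF, and the lines were above every culture. The rise from MEF to day 16 was 5.87 ± 0.84 (58.6-fold, adjusted p = 0.000197), the largest of any member. From day 28 to the lines the value was 0.99 ± 0.46 with an adjusted p of 0.0812. Slc2a1 was at 108 CPM in MEF, 176 and 236 CPM at day 16, 131 and 231 CPM at day 28, 355 to 439 CPM in the CiPS lines and 285 CPM in ES. It rose from day 28 to the lines by 1.14 ± 0.41 (adjusted p = 0.0304), but without D28 replicate 1, CiPS2t or CaCiPS1t the adjusted p was 0.225, 0.0685 and 0.0514. By FPKM, Slc2a3 made up 6.53% of both transporters in MEF, 58.5% and 73.1% in the day 16 libraries and 66.5% to 70.6% in the CiPS lines.

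Hexokinase traps glucose in the cell, and Hk2 encodes the inducible form beside the more constant Hk1. Hk2 was at 71 CPM in MEF, 213 and 313 CPM at day 16, 325 and 442 CPM at day 28 and 391 to 550 CPM in the CiPS lines. It rose by 1.89 ± 0.32 from MEF to day 16 (3.7-fold, adjusted p = 0.000677), and in the lines it differed from day 28 by 0.39 ± 0.22 (adjusted p = 0.138). Hk1 lay between 99.7 and 183 CPM in every library. Its share of both hexokinases by FPKM was 51.8% in MEF and 14.5% to 22.1% in the CiPS lines.

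Phosphofructokinase commits sugar to glycolysis, and its liver (Pfkl), muscle (Pfkm) and platelet (Pfkp) subunit genes all rose in the lines. Pfkp was at 51.7 CPM in MEF, 49.6 and 58.1 CPM at day 28, 317, 326 and 339 CPM in the CiPS lines and 234 CPM in ES. Over all 14 cultures it stayed between 39.8 and 76.8 CPM, so the lines stood apart from every earlier library. Its rise from day 28 was 2.62 ± 0.14 (6.17-fold, adjusted p = 1.45e-08), and against MEF it was 2.68 ± 0.19 (adjusted p = 4.78e-07). Pfkl rose by 0.76 ± 0.14 and Pfkm by 1.22 ± 0.27 from day 28. Pfkp supplied 9.02% and 13.1% of the phosphofructokinase FPKM at day 28 and 27.6% to 29.5% in the CiPS lines. Pfkfb3, which makes the allosteric activator of phosphofructokinase, was at 30.2 CPM in MEF and 48.6 and 58.6 CPM at day 16. Its rise of 0.83 ± 0.29 (adjusted p = 0.0466) lost the call when any of 10 libraries was left out, with adjusted p between 0.0515 and 0.127.

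Of the remaining hexose enzymes, aldolase and glucose-6-phosphate isomerase rose in the lines and triose-phosphate isomerase did not pass the test. Aldoa, the main aldolase here, went from 538 and 548 CPM at day 28 to 1350 to 1397 CPM in the CiPS lines (1.35 ± 0.19, adjusted p = 5.65e-05). Aldoc, the brain-type aldolase, went from 2.87 and 3.4 CPM to 15.3 to 21 CPM (2.56 ± 0.42), and stayed under 2% of aldolase FPKM. Gpi1 rose by 0.68 ± 0.15. Tpi1 was at 470.0 and 481 CPM at day 28 and 426 to 484 CPM in the lines (-0.04 ± 0.20, adjusted p = 0.862).

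**Figure D3:**
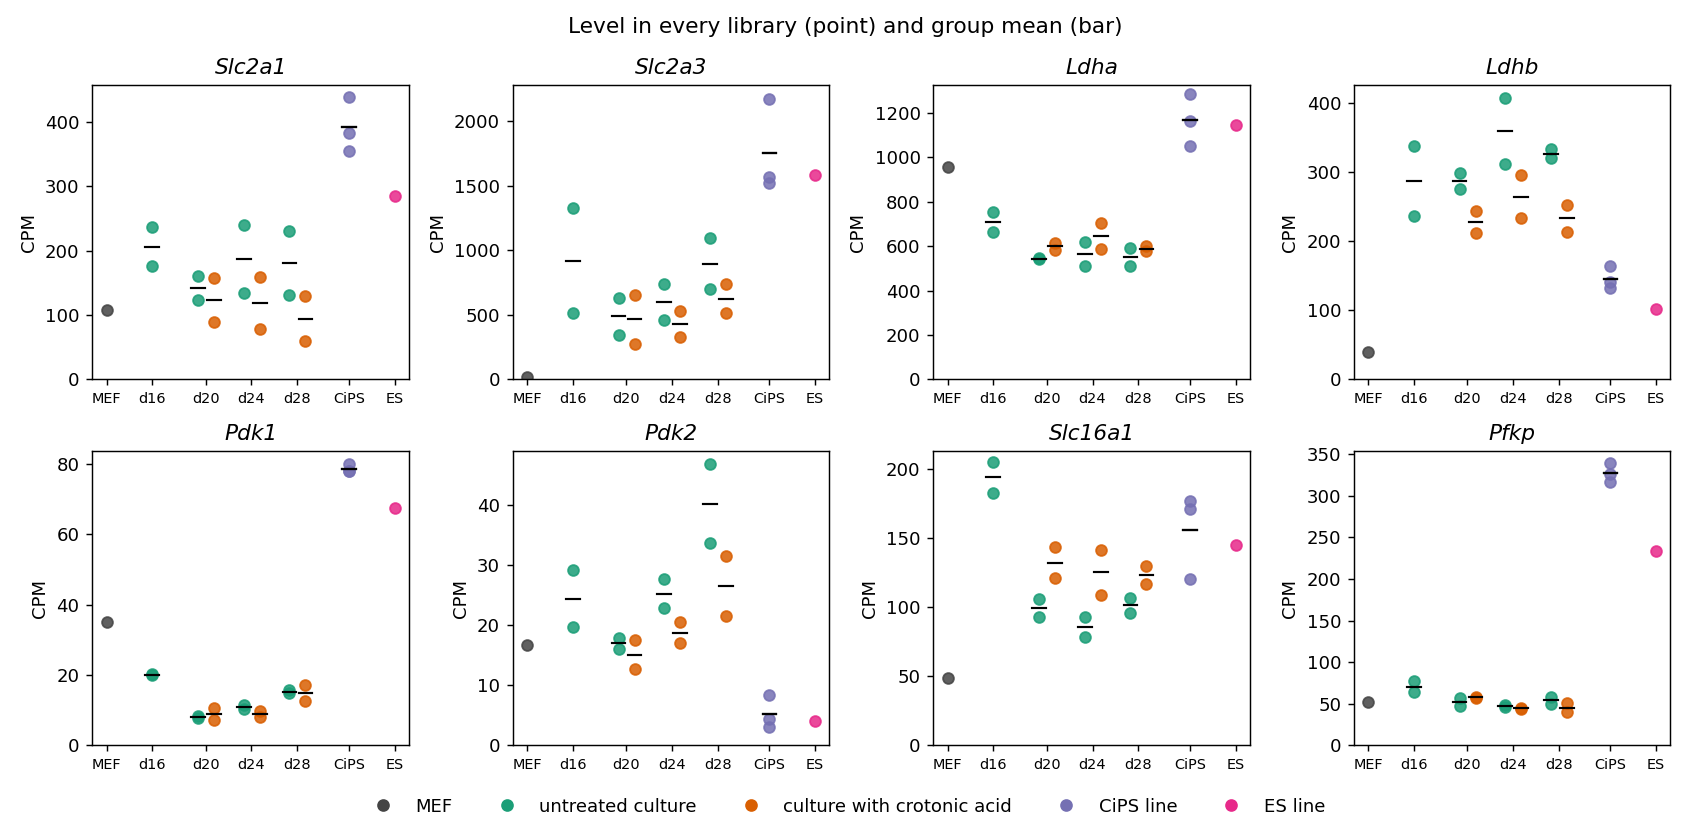
Level in CPM of 8 genes in every library (points) with group means (bars) on linear axes from 0. Slc2a3 and Ldhb are already far above MEF at day 16, Pfkp and Pdk1 are high only in the CiPS and ES lines, and Pdk2 is highest at day 28 and lowest in the lines.

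The triose enzymes, which yield the ATP of glycolysis, were mostly higher in the lines: 6 of 7 rose from day 28, beside 29.1% of all genes, and Eno2 (0.06 ± 0.31) did not pass the test. Pgk1, the first ATP-yielding step, was at 519 CPM in MEF, 340.4 and 351 CPM at day 16, 166 and 182 CPM at day 28 and 844, 880 and 941 CPM in the CiPS lines. Its levels thus fell below MEF in every culture and lay above MEF in every line. The fall from MEF to day 16 was 0.59 on the log2 scale (SE 0.13, adjusted p = 0.00465), the fall from day 16 to day 28 was -0.95 ± 0.12 (adjusted p = 0.000571), and the rise to the lines was 2.38 ± 0.11 (5.19-fold, adjusted p = 5.21e-09). The day 16 change lost its call with total-count scaling. With only the compared groups in the fit, both falls lost their calls.

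Pkm followed the same course, with 1568 CPM in MEF, 1373 and 1487 CPM at day 16, 893 and 1031 CPM at day 28 and 3410 to 3828 CPM in the CiPS lines. It rose by 1.94 ± 0.13 from day 28 to the lines (3.82-fold, adjusted p = 1.03e-07) and by 1.22 ± 0.17 against MEF. Its fall from day 16 to day 28 (-0.53 ± 0.14, adjusted p = 0.0267) lost the call without D16 replicate 1, D20 replicate 2 or D28 replicate 2, at adjusted p of 0.0863, 0.0505 and 0.161. The counts do not separate the Pkm splice forms M1 and M2.

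Enolase makes phosphoenolpyruvate. Eno1, its ubiquitous form, was at 1327 CPM in MEF, 568 and 762 CPM at day 16, 486 and 539 CPM at day 28 and 1917 to 2109 CPM in the CiPS lines. It fell from MEF to day 16 (-1.0 ± 0.22, adjusted p = 0.00385) and rose to the lines (2.01 ± 0.18, adjusted p = 1.28e-06). Eno1 is uncertain because a near-identical intronless copy, Eno1b, was counted at 1.59 and 1.86 CPM at day 28 and at 76.6 to 107 CPM in the CiPS lines. Its call against MEF was also lost without either crotonic acid line, at adjusted p of 0.0543 and 0.055. Eno3, the muscle form, was at 22.9 CPM in MEF, 6.76 and 7.32 CPM at day 16, and 12.4 to 13.8 CPM in the CiPS lines, with -0.80 ± 0.23 against MEF, a call lost with total-count scaling (adjusted p = 0.0628). Its rise of 0.57 ± 0.20 from day 28 became 0.28 without D28 replicate 1 (adjusted p = 0.276). That call was also lost without CaCiPS4t (adjusted p = 0.0643), with no filter on low counts (adjusted p = 0.102) and with only the compared groups (adjusted p = 0.0894). Gapdh (1.10 ± 0.18) and Pgam1 (1.52 ± 0.12) also rose from day 28. Gapdh and other glycolysis genes have processed copies in the mouse genome, and the sources used here do not say how the authors assigned shared reads.

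Lactate dehydrogenase is built from Ldha subunits, which favour making lactate, and Ldhb subunits, which favour using it. Their promoters are shown because both genes moved in opposite directions between day 28 and the lines. They are the RefSeq windows of mouse build GRCm38.p6, from 250 bases before to 50 after the most upstream listed start, printed 5′ to 3′ on the gene's strand. Capitals mark ACGTG or its complement CACGT, a form of the core letters of hypoxia response elements. The other form, GCGTG, was not searched and is not marked.
Ldha, chr7:46845554-46845853, plus strand: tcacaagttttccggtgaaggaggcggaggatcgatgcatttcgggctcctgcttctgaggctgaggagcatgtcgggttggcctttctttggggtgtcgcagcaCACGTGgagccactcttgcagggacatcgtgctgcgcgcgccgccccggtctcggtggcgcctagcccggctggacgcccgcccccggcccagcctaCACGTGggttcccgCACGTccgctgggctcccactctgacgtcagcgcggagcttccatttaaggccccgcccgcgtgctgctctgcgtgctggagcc
Ldhb, chr6:142507908-142508207, minus strand: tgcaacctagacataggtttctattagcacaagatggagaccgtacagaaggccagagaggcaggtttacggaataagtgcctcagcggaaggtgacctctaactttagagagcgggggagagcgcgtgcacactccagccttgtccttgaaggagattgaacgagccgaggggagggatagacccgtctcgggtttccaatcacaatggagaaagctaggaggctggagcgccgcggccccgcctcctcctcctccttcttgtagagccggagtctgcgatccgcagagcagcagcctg
For ACGTG, the printed Ldha window holds 5 matches, counting the palindrome CACGTG once on each strand, and the Ldhb window holds 0. The uncounted form GCGTG occurs in both windows. A match is a description of letters and was not tested as a binding site.

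Ldhb was at 39.3 CPM in MEF, 236 and 338 CPM at day 16, 320.0 and 332 CPM at day 28, 132, 141 and 164 CPM in the CiPS lines and 102 CPM in ES. Every culture was therefore above every line, and every line above MEF. Ldhb rose by 2.87 ± 0.28 from MEF to day 16 (7.3-fold, adjusted p = 1.04e-05) and fell by 1.14 on the log2 scale from day 28 to the lines (SE 0.17, adjusted p = 0.000103). Ldha was at 956 CPM in MEF, 664 and 755 CPM at day 16, 509 and 592 CPM at day 28 and 1052 to 1288 CPM in the CiPS lines, a rise of 1.11 ± 0.13 from day 28 (adjusted p = 1.62e-05). By FPKM, Ldha was 12.8 times Ldhb in MEF, 0.838 and 0.937 times at day 28, 3.75 to 5.14 times in the CiPS lines and 5.91 times in ES.

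Lactate crosses the membrane through monocarboxylate transporters, of which Slc16a3 (MCT4) is typical of lactate-exporting cells and Slc16a1 (MCT1) works in both directions. Slc16a1 was at 48.7 CPM in MEF, 183 and 205 CPM at day 16, 95.4 and 107 CPM at day 28 and 119.9 to 177 CPM in the CiPS lines. It rose to day 16 by 1.99 ± 0.26 (adjusted p = 8.7e-05), fell to day 28 (-0.90 ± 0.16, adjusted p = 0.0043), and rose again to the lines (0.64 ± 0.17, adjusted p = 0.0067). The last call was lost without D28 replicate 1 (adjusted p = 0.0603). Slc16a3 was at 75.3 CPM in MEF, 49.3 and 59.4 CPM at day 28 and 135 to 155 CPM in the CiPS lines, a rise of 1.42 ± 0.24.

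Pyruvate enters mitochondria through the carrier of Mpc1 and Mpc2 subunits. Mpc2 was at 45.7 CPM in MEF, 24 to 35.9 CPM over the 14 cultures, 17.9 to 19.6 CPM in the CiPS lines and 16.7 CPM in ES. The levels stepped down without overlap between MEF, cultures and lines. Mpc2 was lower in the lines than in MEF by -1.28 ± 0.16 (adjusted p = 4.1e-05) and than at day 28 by -0.57 ± 0.14 (adjusted p = 0.00306), the latter not called without D28 replicate 1 (adjusted p = 0.0688). The step from MEF to day 16 (-0.53 ± 0.18, adjusted p = 0.0385) was lost without D16 replicate 2 or either crotonic acid line, at adjusted p of 0.169, 0.0505 and 0.0504. Mpc1 is uncertain, since a processed copy, Mpc1-ps, was counted at similar levels of 0.67 to 3.67 CPM.

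Pdha1 and Pdhb encode the subunits of the first pyruvate dehydrogenase enzyme, and Dlat the core acetyltransferase. Pdhb was at 76.1 CPM in MEF, 87.5 and 89.7 CPM at day 28 and 159 to 169 CPM in the CiPS lines (0.90 ± 0.10 from day 28, adjusted p = 9.15e-06). Pdha1 rose by 0.83 ± 0.16. Dlat held between 94.8 and 127 CPM in all 19 libraries.

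Pyruvate dehydrogenase kinases switch that complex off, and Pdk1 and Pdk2 moved in opposite directions. Their promoter windows are shown on the same terms as those of the lactate dehydrogenase pair.
Pdk1, chr2:71872974-71873273, plus strand: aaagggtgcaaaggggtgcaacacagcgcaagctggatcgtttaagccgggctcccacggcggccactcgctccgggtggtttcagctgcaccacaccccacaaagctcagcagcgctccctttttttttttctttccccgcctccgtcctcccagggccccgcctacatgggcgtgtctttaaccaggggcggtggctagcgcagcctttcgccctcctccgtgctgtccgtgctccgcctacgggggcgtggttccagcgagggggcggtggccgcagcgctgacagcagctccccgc
Pdk2, chr11:95041322-95041621, minus strand: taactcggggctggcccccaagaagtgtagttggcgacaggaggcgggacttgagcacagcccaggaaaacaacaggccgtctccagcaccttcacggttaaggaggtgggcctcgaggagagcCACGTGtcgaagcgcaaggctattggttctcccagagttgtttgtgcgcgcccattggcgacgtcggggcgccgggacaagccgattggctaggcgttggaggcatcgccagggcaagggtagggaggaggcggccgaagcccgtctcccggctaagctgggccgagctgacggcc
For ACGTG, the Pdk1 window holds 0 matches, although Pdk1 is a known HIF-1 target, and that of Pdk2 holds 2, from 1 palindrome. The uncounted form GCGTG does occur in the Pdk1 window. No match says only that these letters are not in this window.

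Pdk1 was at 35 CPM in MEF, 19.9 and 20.3 CPM at day 16, 7.06 to 17.1 CPM in the cultures from day 20 on, 78 to 80.1 CPM in the CiPS lines and 67.6 CPM in ES. It rose from day 28 by 2.40 ± 0.18 (5.27-fold, adjusted p = 2.77e-07) and was above MEF by 1.18 ± 0.22 (adjusted p = 0.000743). Pdk2 was at 16.7 CPM in MEF, 33.6 and 46.8 CPM at day 28, 3.07, 4.4 and 8.36 CPM in the CiPS lines and 4.04 CPM in ES. It fell by 2.90 on the log2 scale from day 28 (SE 0.35, 7.46-fold lower, adjusted p = 1.4e-05). Pdk1 thus made up 11.9% and 15.1% of both kinases by FPKM at day 28 and 79.1% to 91.2% in the CiPS lines, with CiPS2t at the low end.

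**Figure D4:**
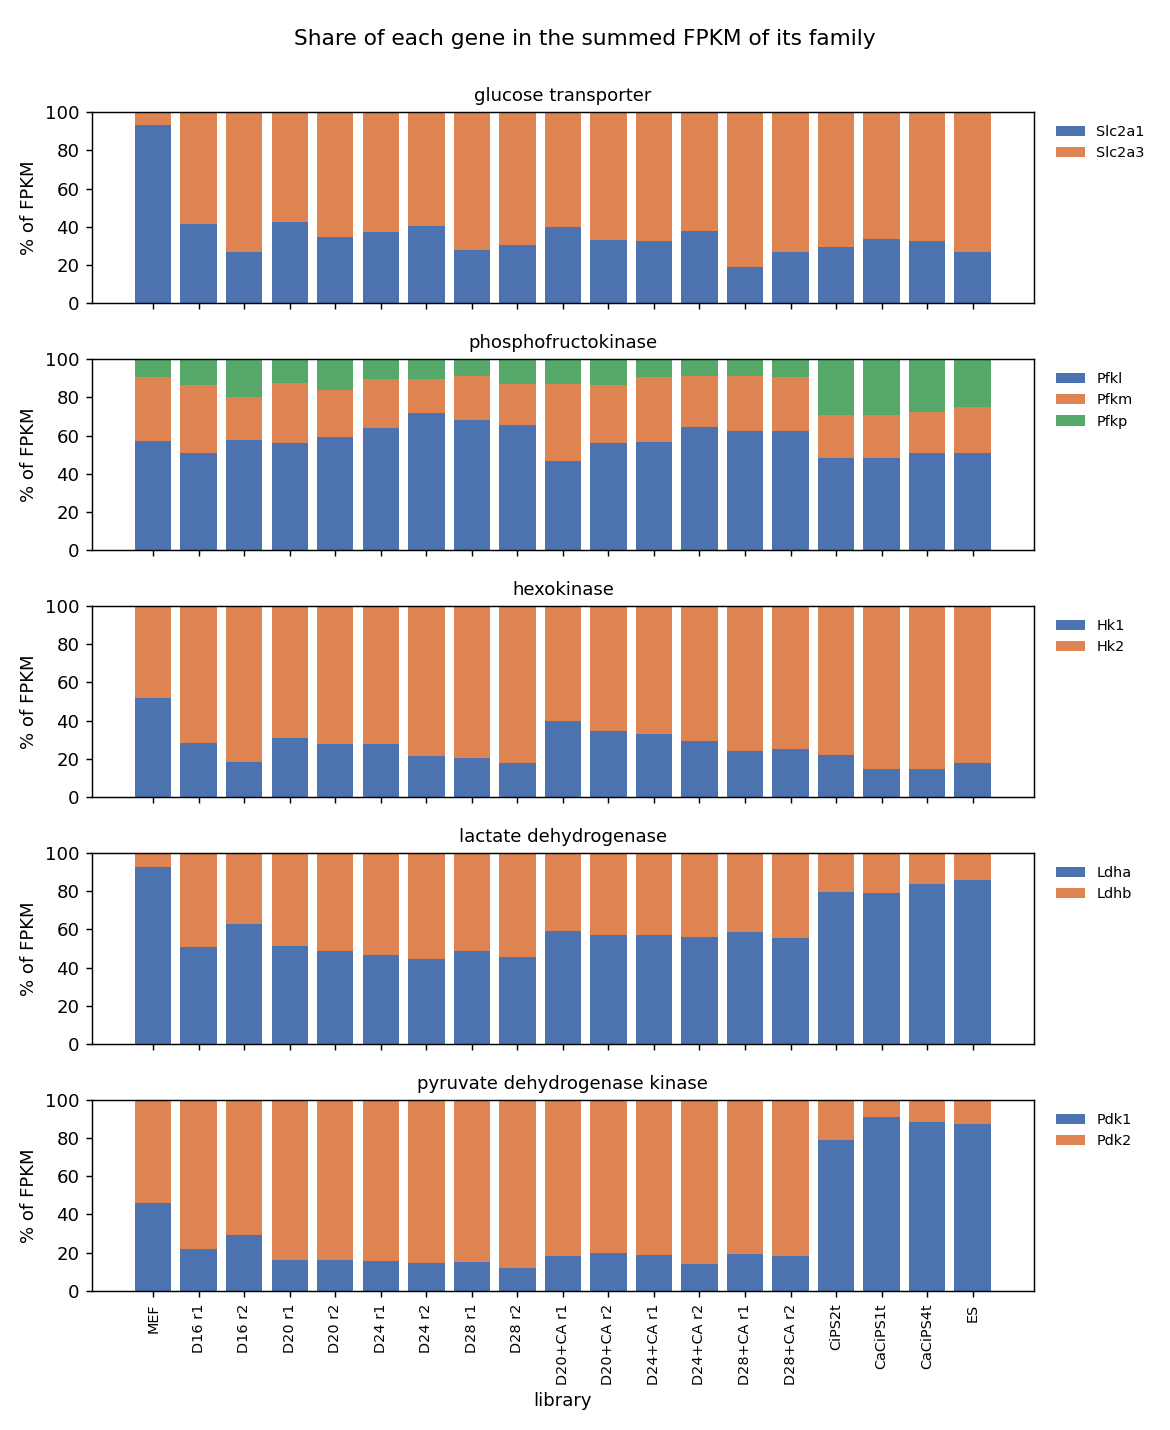
Share of each gene in the summed FPKM of its family, in percent, for 5 families in all 19 libraries. The glucose transporter and lactate dehydrogenase panels change between MEF and day 16, and the lactate dehydrogenase and pyruvate dehydrogenase kinase panels change again between the cultures and the 4 lines at the right.

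Hif1a encodes the oxygen-sensitive subunit of the factor that drives many glycolysis genes in low oxygen, and its activity is set mainly at the protein level. Its transcript was at 251 CPM in MEF, 95.7 to 170.2 CPM over the 14 cultures and 121 to 147 CPM in the CiPS lines. It fell by 0.77 on the log2 scale to day 16 (SE 0.19, adjusted p = 0.00744), a call lost with total-count scaling, and in the lines it differed from day 28 by 0.15 ± 0.15 (adjusted p = 0.4).

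Between days 16 and 28, Pfkl was the only member that rose, from 105 and 111 CPM to 135 and 176 CPM (0.57 ± 0.15, adjusted p = 0.0297). Pgk1, Pkm and Slc16a1 fell, as given above. The Pfkl call was lost without either D16 library, either D20 library or D28 replicate 1, at adjusted p of 0.0812, 0.0921, 0.0554, 0.0556 and 0.164. Libraries of the same replicate number deviated together, and with the replicate number as a block 3 members rose and 4 fell, beside 16.8% and 14.2% of all genes. The added calls were Hk2 (0.59 ± 0.11, adjusted p = 0.00215), Pdk2 (0.73 ± 0.23, adjusted p = 0.0335) and Eno2 (-0.62 ± 0.20, adjusted p = 0.0356). Without the 2 crotonic acid libraries that carried liver transcripts, described next, Pfkl and Pkm lost their calls (adjusted p = 0.0569 and adjusted p = 0.0681), which left 2 called members, and 6 with the block as well. Leaving out D16 replicate 1 or D20 replicate 2 also left 2.

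With crotonic acid, calls among these genes depended on the fit. Without the replicate block, edgeR called 0 members at day 20, 24 or 28, beside 0.00% of all genes at each day, while 2, 3 and 3 members had an unadjusted p under 0.05, and DESeq2 also called 0 members at each day. For the mean over the 3 days, edgeR called 0 members beside 1.04% of all genes (0.604% higher and 0.431% lower), with 5 at an unadjusted p under 0.05, and DESeq2 called 3 (Hk1, Ldhb and Slc16a1). With no filter on low counts edgeR called 4 (Slc2a1, Pfkm, Ldhb and Slc16a1), with total-count scaling 1 (Slc16a1) and with only the compared groups 1 (Hk1). The shares of all genes called by DESeq2 and in these settings are not given here. With the block, 3 members rose and 2 fell for the mean over days, beside 4.21% and 3.21% of all genes (7.42% in all). The 3 that rose were Hk1, Pfkm and Slc16a1, and the 2 that fell were Slc2a1 and Ldhb. The change in the effect between days 20 and 28 gave 0 called members with edgeR, with or without the block, and with DESeq2, and 1 member without the block had an unadjusted p under 0.05. That member was Slc16a3, at -0.99 ± 0.40 (adjusted p = 1), named after its value was seen.

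The 12 liver markers summed to 85.5 CPM in MEF, which is outside the crotonic acid fits, and to 9.77 to 39.2 CPM in all but 2 cultures. Those 2 treated libraries carried more liver transcripts: D20 with crotonic acid replicate 2 (61.6 CPM) and D28 with crotonic acid replicate 1 (143 CPM). Without them the block called 2 members, Slc2a1 (-0.60, adjusted p = 0.0269) and Pfkm (0.63, adjusted p = 0.0176). The share of all genes called in that refit is not given here. Genes of the endoderm list, which were also high in MEF as a sum, moved with the treatment too: 0 of 12 rose and 9 fell with the block. Their sum was 18841 to 34430 CPM in untreated and 13675 to 22201 CPM in treated cultures of days 20 to 28. The part of either in the changes below was not tested.

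Slc2a1 was at 123 and 161 CPM at day 20, 134 and 239.6 CPM at day 24, and 131 and 231 CPM at day 28 without crotonic acid. With it, the values were 89.3 and 157 CPM, 77.9 and 159 CPM, and 59.6 and 129 CPM. Treated libraries were lower in 6 of 6 pairs of the same day and number, although the groups overlapped at days 20 and 24. The blocked mean was -0.65 ± 0.09 (adjusted p = 0.00324), against -0.61 ± 0.28 (adjusted p = 0.42) without the block. At day 28 alone the blocked change was -0.97 ± 0.16 (adjusted p = 0.0334), the only member that the block called at a single day. The block called 0.0345% of all genes at day 20 (0.0230% higher, 0.0115% lower), 0.535% at day 24 (0.236% and 0.299%) and 0.615% at day 28 (0.299% and 0.316%). Without the 2 libraries with liver transcripts it called 0 members at day 28.

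Ldhb was at 275 and 299 CPM, 311 and 407 CPM, and 332 and 320.0 CPM without crotonic acid at days 20, 24 and 28. With it, the values were 211 and 243 CPM, 234 and 295 CPM, and 213 and 253 CPM. Treated libraries lay below untreated ones at each day without overlap. The blocked mean was -0.43 ± 0.10 (adjusted p = 0.0285), and it was -0.43 ± 0.11 (adjusted p = 0.119) without the block.

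Slc16a1 was at 92.5 and 106 CPM, 78.7 and 93.1 CPM, and 95.4 and 107 CPM without crotonic acid at those days, and at 121 and 144 CPM, 109 and 141 CPM, and 117 and 129.9 CPM with it. Treated libraries were above untreated ones at each day. The blocked mean was 0.41 ± 0.07 (1.33-fold, adjusted p = 0.0053), and without the block the adjusted p was 0.0725.

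Hk1 ran from 116 to 139 CPM in the 6 untreated libraries of days 20 to 28 and from 149.6 to 183 CPM in the 6 treated ones. Its blocked mean was 0.33 ± 0.07 (adjusted p = 0.0215), against an adjusted p of 0.0882 without the block. Pfkm ran from 24.6 to 39.1 CPM untreated and 40.0 to 56.8 CPM treated, with a blocked mean of 0.53 ± 0.11 (adjusted p = 0.0169) and an adjusted p of 0.249 without the block. Hk1, Pfkm and Slc16a1 were above at all 3 days without overlap, 9.68% of members beside 3.76% of all genes, and Ldhb was below at all 3, 3.23% beside 2.60%. The other 26 members were not called in the blocked mean, which was 0.06 ± 0.06 for Pgk1, 0.13 ± 0.07 for Pkm, -0.05 ± 0.08 for Gapdh and 0.14 ± 0.07 for Ldha.

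**Figure D5:**
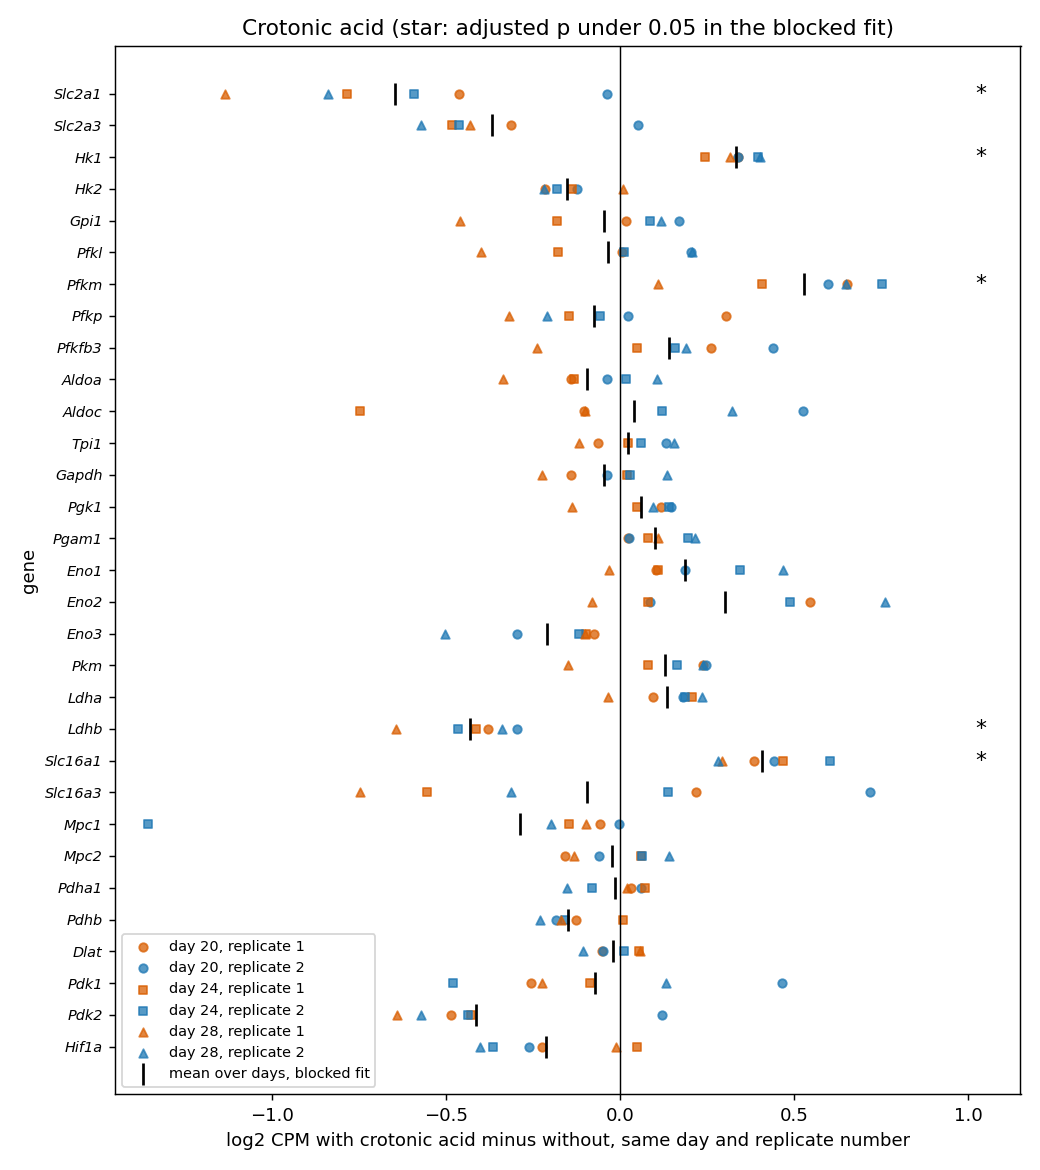
Log2 CPM with crotonic acid minus without, for each gene and each of the 6 pairs of the same day (marker shape) and replicate number (colour), with the blocked mean over days as a black bar and a star where its adjusted p was under 0.05. All 6 points lie left of 0 for Slc2a1 and Ldhb and right of 0 for Hk1, Pfkm and Slc16a1. They also all lie left of 0 for Eno3 and Mpc1 and right of 0 for Pgam1, which have no star.

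Ratios within a library do not depend on scaling. For 4 paralog ratios, treatment labels were permuted within days in an exact 2-sided test (216 arrangements, smallest possible p 0.00926), adjusted over the 4. Each ratio holds a gene called in the blocked mean of the same libraries (Slc2a1, Hk1, Ldhb or Slc16a1). The ratio tests are therefore not independent of those calls and add no separate support for them. The FPKM ratio of Hk1 to Hk2 was 0.22 to 0.451 untreated and 0.322 to 0.662 treated, 1.40-fold higher on average over days (adjusted p = 0.0185, exact permutation). The ratio of Ldha to Ldhb was 0.802 to 1.04 untreated and 1.25 to 1.45 treated, 1.48-fold higher (adjusted p = 0.0185, exact permutation). The ratio of Slc16a1 to Slc16a3 was 2.13 to 4.49 untreated and 3.26 to 4.92 treated, 1.42-fold higher (adjusted p = 0.0494, exact permutation). With exchange within same-numbered pairs its adjusted p was 0.0938. The ratio of Slc2a1 to Slc2a3 was 0.388 to 0.738 untreated and 0.238 to 0.665 treated, with a log2 difference of -0.27 (adjusted p = 0.102, exact permutation), and an adjusted p of 0.0417 by exact permutation within pairs. Without the D28 crotonic acid replicate 1 library, which carried liver transcripts, that difference was -0.17 (adjusted p = 0.167, exact permutation). The Slc16a1 to Slc16a3 call was lost when any of 7 libraries was left out.

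In ES compared with the CiPS lines, edgeR called 0 members and 0.0204% of all genes, 2 members had an unadjusted p under 0.05, and DESeq2 also called 0 members. In value, 29 of 31 members were lower in ES. Of all genes, 47.3% were higher in value there and the rest were not. The median difference was -0.19 over the members against -0.01 over all genes. Of the 31, 22 (71.0%) lay below every CiPS line and 0 above, beside 24.8% and 26.0% of all genes. The value was -0.49 ± 0.16 for Pfkp and -0.52 ± 0.23 for Ldhb. ES is 1 library.

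The letters ACGTG, searched on both strands, occurred in a promoter window of 17 of the 30 members that have one (56.7%), beside 21.8% of all genes with a window. The E-box CACGTG, which contains them and is bound by MYC-family factors, occurred in 6 members (20%), beside 8.09% of all genes. By window, ACGTG was in 20 of 45 member windows (44.4%) and 19.6% of all 32851. Of members that rose from day 28 to the lines 12 of 19 held ACGTG, of those that fell 1 of 3, and of those not called 4 of 8.

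Among other genes of the pathway, Hkdc1, a hexokinase-domain gene, was nearly absent from fibroblasts and lines and high in the cultures. It had 1 read in MEF, 99.2 and 124 CPM at day 16, 236 and 289.9 CPM at day 28, and 0.229 to 0.659 CPM in the CiPS lines. The change from day 28 to the lines was -9.32 ± 0.42 (adjusted p = 3.99e-09), and the blocked mean with crotonic acid was -0.80 ± 0.08 (adjusted p = 0.000523), not called without the block (adjusted p = 0.0774). Of 29 tested further isoforms and pyruvate genes, 8 rose and 11 fell from day 28 to the lines, beside 29.1% and 30.4% of all genes. Tigar, which lowers the phosphofructokinase activator, rose by 2.29 ± 0.12, and Adpgk, an ADP-dependent glucokinase, fell (-0.86 ± 0.10).

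Epas1, which encodes HIF-2 alpha, was at 10.3 CPM in MEF, 924 and 1175 CPM at day 16, 1327 and 1985 CPM at day 28 and 71.2 to 75.9 CPM in the CiPS lines. It rose by 6.67 ± 0.46 to day 16 (adjusted p = 1.23e-06) and fell by 4.46 on the log2 scale to the lines (SE 0.25, adjusted p = 2.31e-08), and with crotonic acid the blocked mean was -0.44 ± 0.07 (adjusted p = 0.00452), not called without the block (adjusted p = 0.296). Of 17 HIF targets outside glycolysis, 5 rose and 8 fell from day 28 to the lines, where 29.1% and 30.4% of all genes did. The histone demethylase Kdm3a rose by 2.52 ± 0.14 and the collagen prolyl hydroxylase P4ha2 fell (-3.15 ± 0.23). With crotonic acid, 0 of the 17 rose and 9 fell in the blocked mean, beside 4.21% and 3.21% of all genes, but 1 fell without the block. P4ha1 went from 181 to 374 CPM in untreated to 122 to 237 CPM in treated cultures of days 20 to 28 (-0.56 ± 0.06, adjusted p = 0.000538, blocked).

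Gluconeogenesis, the reverse route, held 6 tested genes in the culture fit, of which 3 rose and 0 fell from day 16 to day 28, beside 10.1% and 6.80% of all genes. Pck1, its rate-controlling cytosolic enzyme, went from 0.0457 and 0.136 CPM to 5.42 and 12.9 CPM (6.61 ± 0.94, adjusted p = 0.00129). From day 28 to the lines 1 of 7 rose and 5 fell, beside 29.1% and 30.4% of all genes, Pck1 among those that fell, at 0 to 0.158 CPM. The mitochondrial form Pck2 rose there by 1.19 ± 0.11, yet was lower than in MEF by -1.94 ± 0.12. Against the same shares, of 7 pentose phosphate genes 2 rose and 4 fell, and Pgd, which makes NADPH, fell (-1.40 ± 0.14, adjusted p = 4.23e-06). Of 16 citric acid cycle genes 2 rose and 8 fell beside those shares, Suclg2 rising by 0.83 ± 0.10 and Ogdh falling (-0.61 ± 0.10).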

How the data were processed

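Bulk RNA-seq was made with a Qiagen RNA mini kit and the NEBNext Ultra library kit, per the labels' protocols. The authors deposited 1 table of raw read counts per Ensembl gene and 1 of FPKM. For the aligner, counter, build and strandedness, nothing was given in the sources used here. Of the 20 columns, 1 matched no label and was not used, and the BrdU line is not analysed here. The deposited FPKM values were proportional to counts within each gene.

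Counts were fitted with edgeR 4.0.16 in R 4.3.3 (TMM scaling, filterByExpr with a minimum count of 10, quasi-likelihood test, Benjamini-Hochberg adjusted p under 0.05). The 14 cultures (17387 genes tested) served day 28 against day 16 and crotonic acid. All 19 libraries (19597 genes tested) served the other comparisons, with the 3 CiPS lines as 1 group. DESeq2 1.42.0 and limma 3.58.1, with FPKM plus a pseudocount of 1, were alternatives. The fits of the 14 cultures without the block were also run on simulated counts with independent libraries. The replicate block and the fit of all 19 libraries were not covered by that simulation.

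Library names without and with a repeat tag gave the replicate numbers. Over 21 pairs of groups, replicate differences correlated at 0.258 to 0.578, each over 0.1, so the numbers pair the libraries, and a fit with the number as a block was run. All 31 members are named, with up to 3 called genes of smallest p per pathway list. Members and lists were chosen with earlier results of these data known. Promoters are from RefSeq (30 of 31 members matched).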

Additional observations from a re-analysis of the deposited data

How the results depend on the processing

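The counts of called members are limited by 2 libraries a group, and by 1 for MEF and ES. For members called in the main or blocked fit, 1720 values from the alternatives kept their direction and side of the threshold. Of the other values, 56 lost a call, 27 gained one and none reversed. Members called in neither fit and the paralog ratios are outside these counts. For day 16 against MEF, only the compared groups gave 4 called members against 11. For day 28 against day 16, the count of 4 became 7 with no filter on low counts, 0 with only the compared groups, 7 with the replicate block and 2 without the libraries with liver transcripts, and it ran from 2 to 4 leaving out 1 library at a time. For crotonic acid at day 28, the count of 0 became 1 with no filter and 1 with the replicate block. For its mean over days, the count of 0 became 1 with total-count scaling, 4 with no filter, 3 with DESeq2, 1 with only the compared groups, 5 with the replicate block and 2 with the block but without the libraries with liver transcripts. The cause was not tested. Apart from the block with all libraries, the shares of all genes called in these alternatives are not given here. Exchange within same-numbered pairs (the block) left the log2 ratio difference at -0.273 for Slc2a1 to Slc2a3, now past the threshold, and at 0.502 for Slc16a1 to Slc16a3, no longer past it, and the latter ran from 0.411 to 0.594 leaving out 1 library at a time. Among the 31 members and the 4 ratios, the block changed no other call than those named here and in the text. Among the other pathway genes it added 14 calls for day 28 against day 16, 2 each for crotonic acid at days 24 and 28, and 15 for its mean over days. The Slc2a1 to Slc2a3 difference ran from -0.375 to -0.171 leaving out 1 library at a time. The alternatives without the libraries with liver transcripts were chosen after seeing the data.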
